A study of Mus musculus with 8 samples.

Results

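The FoxO transcription factors *Foxo1*, *Foxo3* and *Foxo4* and 6 genes known as their targets in muscle atrophy and insulin signaling were followed in fetal mouse hearts with and without the type 3 deiodinase. The genes were chosen by name. All 9 were found in the deposited table, under 18 of its 51414 transcript rows and as 9 of its 26590 gene symbols. Each gene is described by its most abundant row, averaged over the genotypes, and its other rows are given beside it. The 4 control hearts were Dio3+/+ and the 4 mutant hearts were Dio3-/-, all C57BL/6J. Each RNA sample came from 1 fetus, and the labels name no treatment. The type 3 deiodinase, encoded by *Dio3*, clears thyroid hormone, and the Dio3-/- fetuses lack the functional enzyme in every tissue. The titles of the 8 samples place them at embryonic day E13.5, whereas the age field gives E18.5 for 2 of the 4 Dio3-/- hearts and the paper's Methods give a day between these ages. Values for single hearts are not part of the table used here, so neither those 2 hearts nor any other could be left out.

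FoxO factors are forkhead transcription factors that act as the nuclear arm of insulin and growth factor signaling. When insulin or IGF receptors are active, the kinase AKT phosphorylates FoxO proteins and they are kept out of the nucleus. When the signal falls, they enter the nucleus and switch on genes for protein breakdown, autophagy, growth restraint and insulin sensitivity. In striated muscle their best known targets are the atrophy ubiquitin ligases *Fbxo32* (atrogin-1) and *Trim63* (MuRF1). Because FoxO activity is set largely by phosphorylation, the transcript level of a FoxO gene is not a measure of its activity.

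The proximal promoters were read for the letters that FoxO factors are known to bind. RefSeq promoter sequences (GRCm38.p6) were found for 7 of the 9 genes, all but *Foxo4* and *Fbxo32*. The FoxO core GTAAACA, on either strand, was found in the 250 bases before the start of 1 of these 7 genes, *Trim63*, and in 3.17% of all 32851 promoters. The related insulin response core CAAAACA was found in 1 of the 7, *Irs2*, and in 5.56% of all promoters. These promoters are shown because *Trim63* and *Irs2* had the highest and the lowest log2 fold change of the 9 genes. Each is written 5′ to 3′ on the strand of its gene, with the match in capitals, and a match describes the letters only. In *Trim63*, at chr4:134314870-134315119 on the plus strand, the match began 194 bases before the start. In *Irs2*, at chr8:11008930-11009179 on the minus strand, it began 37 bases before the start.
*Trim63*: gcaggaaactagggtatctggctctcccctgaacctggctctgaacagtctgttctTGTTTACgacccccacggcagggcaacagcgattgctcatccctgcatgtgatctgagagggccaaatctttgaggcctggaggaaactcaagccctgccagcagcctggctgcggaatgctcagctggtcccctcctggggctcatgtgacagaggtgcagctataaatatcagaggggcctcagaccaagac
*Irs2*: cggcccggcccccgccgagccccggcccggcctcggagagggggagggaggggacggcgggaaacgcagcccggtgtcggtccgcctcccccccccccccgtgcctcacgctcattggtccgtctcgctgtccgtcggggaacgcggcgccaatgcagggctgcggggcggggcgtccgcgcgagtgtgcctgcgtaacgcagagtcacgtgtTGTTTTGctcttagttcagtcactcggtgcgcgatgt

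The libraries were made from total RNA after removal of ribosomal RNA. The deposited table gives, for each transcript row, a genotype mean in RPKM (reads per kilobase of transcript, relative to all mapped reads) and the coefficient of variation (SD as a ratio to that mean) over its 4 hearts, both rounded by the authors to 2 decimals. The table holds no counts, so the depth behind a single value is unknown here. The targeted transcript was too low to check the genotype labels, at 0.35 ± 0.43 RPKM (SD) in Dio3+/+ against 0.13 ± 0.10 RPKM in Dio3-/- hearts. The design text calls the hearts male, but *Xist*, which females express, had 35.64 ± 35.28 RPKM in Dio3+/+ against 39.97 ± 21.98 RPKM in Dio3-/- hearts. The Y-linked *Eif2s3y* had 9.38 ± 9.76 and 7.29 ± 10.64 RPKM. Both sexes thus appear to be present in each genotype, in unknown numbers. The part of sex in the differences below, among them that of the X-linked *Foxo4*, was not tested. As a check of the tissue label, all 11 cardiomyocyte markers were read in Dio3+/+ hearts, at 24.20 (*Ryr2*) to 4778.41 RPKM (*Actc1*). Marker sums of red cells, liver and skeletal muscle differed more between the genotypes than those of endothelial cells and macrophages. The 6 endothelial markers summed to 237.86 RPKM in Dio3+/+ against 254.07 RPKM in Dio3-/- hearts. The 5 macrophage markers tested summed to 39.67 and 44.42 RPKM. The 6 red cell markers tested summed to 37274.21 RPKM in Dio3+/+ against 12746.28 RPKM in Dio3-/- hearts, and all 6 had a lower mean in Dio3-/- hearts. The 8 liver markers summed to 22.91 and 122.59 RPKM, all higher in Dio3-/- hearts. Of the 8, 0 passed the adjusted threshold by limma, against 2.29% of all genes. All 8 had an unadjusted *P* value under 0.05 by limma, against 19.7% of all genes. The SDs of the 8 markers were about as large as their means, with median coefficients of variation of 0.99 and 1.115. Thus 1 or 2 hearts could carry these sums. The 9 skeletal muscle markers tested summed to 76.51 and 24.02 RPKM, 8 of them lower in Dio3-/- hearts. Their median coefficient of variation was 1.43 in Dio3+/+ hearts, where a single heart holding all of a value gives 2. Thus 1 or 2 hearts could carry the Dio3+/+ sum as well. Of the markers tested, 3 skeletal muscle ones exceeded 1 RPKM in Dio3+/+ hearts only and 2 liver ones in Dio3-/- hearts only. Their part in the differences below was not tested. In these whole hearts, fewer cells of a type and less RNA per cell cannot be told apart.

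At the level of the genotype means, *Irs2*, *Foxo3* and *Foxo4* were lower and *Trim63* and *Pik3ip1* were higher without the deiodinase than with it, but none of the 9 genes passed the test across all genes. Differences were tested with limma on log2(RPKM + 0.5), over the 32703 rows whose mean exceeded 1 RPKM in either genotype or both. All log2 fold changes use that scale and so come out too small for genes of low level. Of the 14657 gene symbols tested by their highest row, 2.29% were below an adjusted *P* value of 0.05. These were 336 genes, 280 higher (1.91%) and 56 lower (0.382%) in Dio3-/- hearts, or 129 and 51 with the median log2 ratio set to 0 by centering. The number for the 9 genes was 0 by limma, in either direction, and 0 by Welch's test. With adjustment, Welch's test called 27 of the 14657 genes, all higher in Dio3-/- hearts, so its 0 in a short list is uninformative. An unadjusted *P* value under 0.05 by limma was found for 5 of the 9 and for 19.7% of all genes. By Welch's test it was found for 4 of the 9, and its share over all genes was not calculated, so that count has no background here. For 4 of the 9 the means lay further apart than both SDs added together, and the same held for 15.5% of all genes. The 5 genes with a lower mean and the 4 with a higher mean had a median log2 fold change of −0.07 together, and all tested genes had one of 0.04.

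Of the FoxO factors themselves, *Foxo3* and *Foxo4* had lower means in Dio3-/- hearts, and *Foxo1* a slightly higher one. *Foxo3* had 19.07 ± 1.72 RPKM (SD) in Dio3+/+ against 15.84 ± 1.27 RPKM in Dio3-/- hearts, for a log2 fold change of −0.26 (95% confidence interval −0.43 to −0.09, limma adjusted *P* = 0.107). The means were further apart than the sum of the SDs, without passing the adjusted threshold. The other 4 rows of *Foxo3* gave log2 fold changes from −0.35 to −0.25, the lowest of them in a minor row with 2.85 and 2.12 RPKM. Rows of 1 gene share reads, so they are not separate evidence.

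*Foxo4*, an X-linked member of the family, had 12.11 ± 0.85 RPKM in Dio3+/+ against 10.26 ± 0.31 RPKM in Dio3-/- hearts. Its log2 fold change was −0.23 (−0.36 to −0.10, limma adjusted *P* = 0.074). This was the widest gap of the 9 genes against the spread, 1.60 times the sum of both SDs. Its other row had 8.05 ± 0.72 and 7.35 ± 0.66 RPKM and a log2 fold change of −0.12 (−0.31 to 0.06), so that the difference there lay within the spread. From its changed genes in these hearts, the paper's Ingenuity analysis reported that pathways under FOXO4 were downregulated. That inference was not tested here. *Foxo1*, which is required for vessel formation in the embryo, had 11.59 ± 0.58 RPKM in Dio3+/+ against 12.54 ± 0.50 RPKM in Dio3-/- hearts. Its log2 fold change was 0.11 (−0.01 to 0.23, limma adjusted *P* = 0.311), and the gap between the means was 0.88 times the sum of the SDs.

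The fourth member of the family, *Foxo6*, is a minor transcript in these hearts. It had means of 1.63 and 2.53 RPKM and a log2 fold change of 0.51 (limma adjusted *P* = 0.060). By the genotype means, *Foxo3* was the most abundant of the 4 in both genotypes. It made up 43.0% of their summed RPKM in Dio3+/+ against 38.5% in Dio3-/- hearts, and *Foxo1* made up 26.1% and 30.5%. *Foxo4* made up 27.3% and 24.9%. These shares come from means and carry no error, because the covariance between genes within a heart is not known. The sum of the 4 was 44.40 RPKM in Dio3+/+ against 41.17 RPKM in Dio3-/- hearts.

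**Figure D1:**
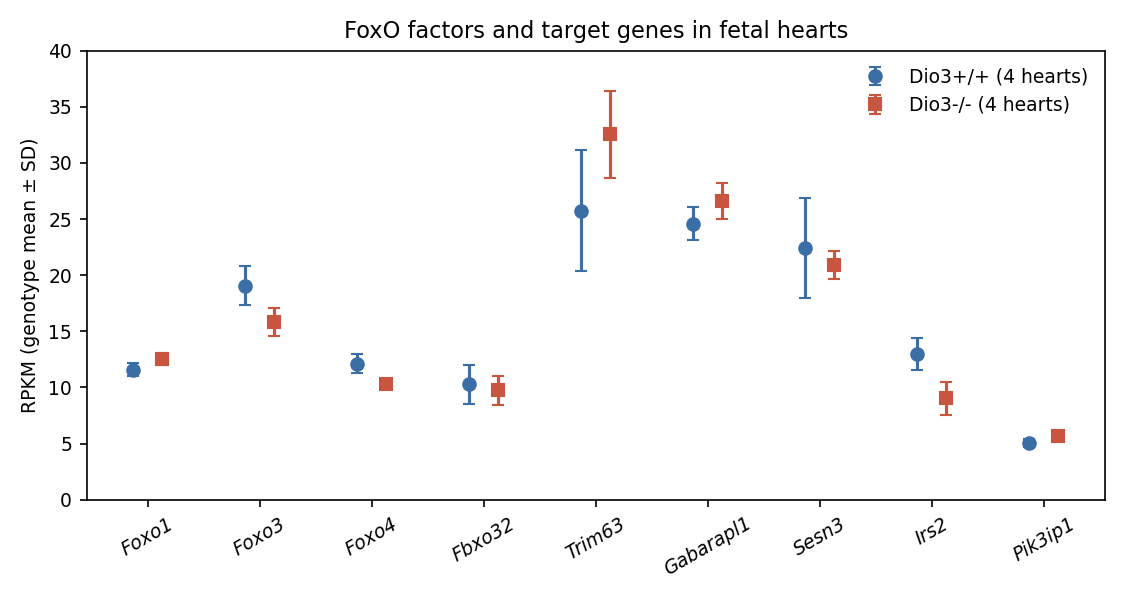
Genotype means (points) with SD over 4 hearts (bars) in RPKM on a linear axis, for the 9 genes in their highest transcript row, with Dio3+/+ as circles and Dio3-/- as squares. The SD ranges are apart for Foxo3 (19.07 and 15.84 RPKM), Foxo4 (12.11 and 10.26), Irs2 (12.97 and 9.02) and, narrowly, Pik3ip1 (5.05 and 5.70), and overlap for the other 5.

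The atrophy ubiquitin ligases had differences of opposite sign, and neither passed the test. *Trim63* encodes a muscle ring-finger ligase of the sarcomere that marks thick filament proteins for the proteasome. It had 25.75 ± 5.41 RPKM in Dio3+/+ against 32.55 ± 3.91 RPKM in Dio3-/- hearts. Its log2 fold change was 0.33 (0.02 to 0.65, limma adjusted *P* = 0.242), with a gap of 0.73 times the sum of the SDs, so the SD ranges overlapped. Its other rows had log2 fold changes of 0.30 and 0.26. *Fbxo32* encodes the substrate adaptor of an SCF ubiquitin ligase. It had 10.28 ± 1.75 and 9.74 ± 1.27 RPKM, a log2 fold change of −0.07 (−0.35 to 0.20, limma adjusted *P* = 0.801). The interval leaves room for a change of either sign.

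Both ligases are genes of striated muscle. Of the 11 cardiomyocyte markers, 2 (*Myh6* and *Ryr2*) passed the adjusted threshold, both higher in Dio3-/- hearts, as did 1.91% of all genes. The median log2 fold change of the 11 was 0.24. Of the 9 skeletal muscle markers tested, 1 (*Tnni2*) passed, lower in Dio3-/- hearts (log2 fold change −0.53, limma adjusted *P* = 0.017), as did 0.382% of all genes. The coefficients of variation of the 9 had medians of 1.43 in Dio3+/+ and 0.34 in Dio3-/- hearts. The coefficients of variation of *Trim63* were 0.21 in Dio3+/+ and 0.12 in Dio3-/- hearts, and those of *Fbxo32* 0.17 and 0.13. Over all tested rows the medians were 0.09 and 0.06.

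The list of atrophy ligases and proteasome genes held 19 genes, and limma gave 0 of the 19 tested an adjusted *P* value under 0.05 (7 higher and 1 lower at an unadjusted *P* value under 0.05, against 19.7% of all genes, and 0 by Welch's test with adjustment). The list median of 0.07 stood beside 0.04 for all genes. The largest log2 fold change was that of *Fbxo40*, a muscle F-box gene whose product is known to target the insulin receptor adaptor IRS1. It had means of 6.79 and 9.39 RPKM, a log2 fold change of 0.44 and an adjusted *P* value of 0.088 by limma. The nearest relatives of *Trim63* were also looked at, a choice made after their values were seen. *Trim55* (MuRF2) had 69.69 and 75.92 RPKM, a log2 fold change of 0.12, and *Trim54* (MuRF3) had 3.04 and 3.42 RPKM, a log2 fold change of 0.15. *Trim55* was therefore the most abundant of the 3 MuRF transcripts by RPKM in both genotypes.

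*Gabarapl1* encodes an ATG8-family protein that is built into the membrane of the growing autophagosome. It had 24.60 ± 1.48 RPKM in Dio3+/+ against 26.59 ± 1.60 RPKM in Dio3-/- hearts, for a log2 fold change of 0.11 (−0.02 to 0.24, limma adjusted *P* = 0.368). The other row gave 0.10. The spread was small in both genotypes, with a coefficient of variation of 0.06 in each, and the interval does not reach beyond 0.24. Its 4 ATG8 relatives in the autophagy list, singled out after their values were seen, had means of either direction, and none passed the adjusted threshold. *Gabarap* had 144.62 and 116.25 RPKM (log2 fold change −0.31, limma adjusted *P* = 0.092) and *Gabarapl2* had 34.10 and 30.12 RPKM (−0.18, limma adjusted *P* = 0.271). *Map1lc3a* had 57.77 and 67.88 RPKM (0.23, limma adjusted *P* = 0.083), and *Map1lc3b* had 55.57 and 52.71 RPKM (−0.08, limma adjusted *P* = 0.387).

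Of 20 autophagy genes, 19 were tested, 1 rose and 0 fell, where 1.91% of all genes rose and 0.382% fell. The list median was 0.02. At an unadjusted *P* value under 0.05 by limma, 2 were higher and 3 lower, a level reached by 19.7% of all genes. The gene that rose was *Ctsl*, which encodes the lysosomal protease cathepsin L. It had means of 62.99 RPKM (coefficient of variation 0.05) and 74.35 RPKM (0.04), a log2 fold change of 0.24 (limma adjusted *P* = 0.0485). Its adjusted *P* value lay above 0.05 in 5 of the 9 alternatives, among them Welch's test (0.133) and the centering of both genotypes (0.0996). The largest difference in the list was that of *Bnip3l*, a mitophagy receptor that clears mitochondria from maturing red cells. It had 105.29 ± 17.90 and 74.20 ± 10.39 RPKM, a log2 fold change of −0.50 (limma adjusted *P* = 0.077). The red cell markers also had lower means, with a median log2 fold change of −1.45. Of the 6 markers, 1 (*Hbb-bh1*) passed the adjusted threshold, as did 0.382% of all genes in that direction. A link between these markers and *Bnip3l* was not tested.

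**Figure D2:**
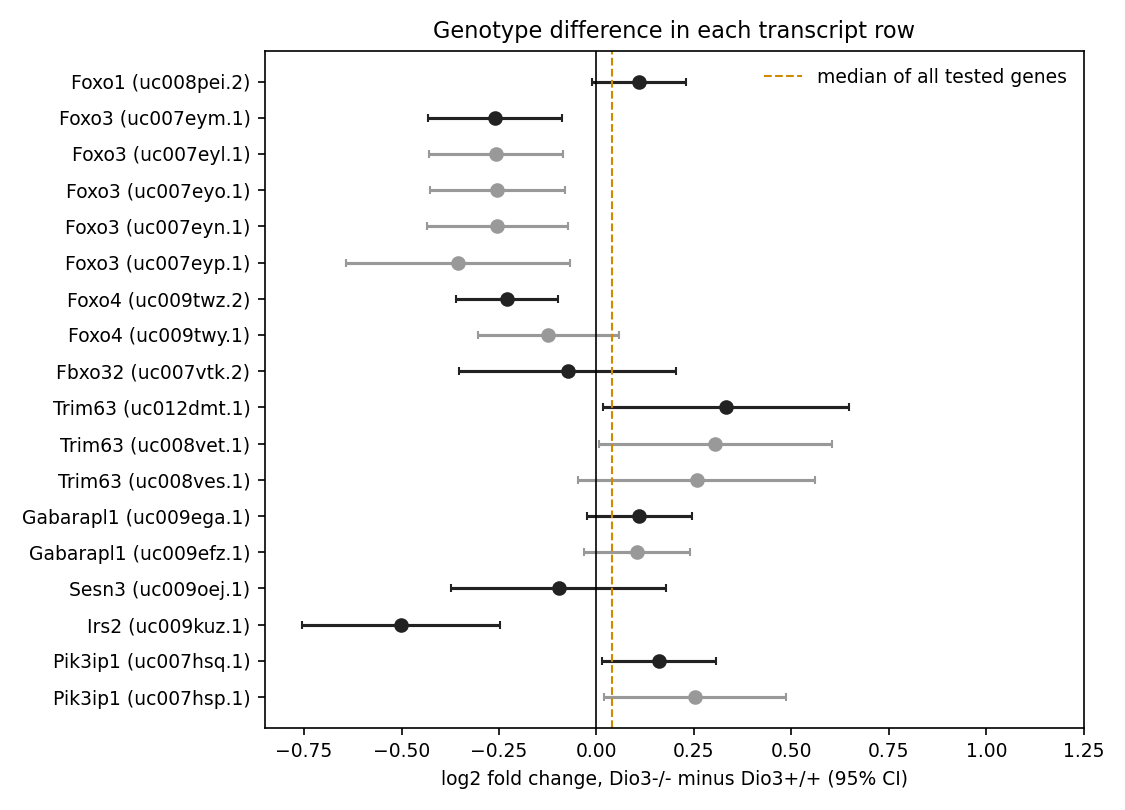
Log2 fold change of Dio3-/- against Dio3+/+ hearts (points, log2(RPKM + 0.5) scale) with 95% confidence intervals from limma (bars) for all 18 transcript rows, with the highest row of each gene in black and its other rows in gray. Irs2 lies farthest left (−0.50), the Foxo3 rows lie between −0.35 and −0.25, Trim63 lies farthest right (0.33), and the dashed line marks the median of all tested genes (0.04).

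*Irs2* had the log2 fold change farthest from 0 of the 9 genes. It encodes an adaptor that links the insulin and IGF receptors to PI3K, and FoxO factors are known to switch it on when insulin is low. It had 12.97 ± 1.43 RPKM in Dio3+/+ against 9.02 ± 1.44 RPKM in Dio3-/- hearts, a change of −30.5% in the mean. The gap was 1.38 times the sum of both SDs. The log2 fold change was −0.50 (−0.76 to −0.25), and 387 of the 14657 genes had a lower *P* value. The adjusted *P* value of 0.058 by limma was just above the threshold. It was 0.044 when only rows with a mean over both genotypes above 5 RPKM were tested, and from 0.057 to 0.197 in the other alternatives. Of all tested genes, 3.81% had a larger absolute log2 fold change. The table holds 1 row for *Irs2*, so no other transcript could be compared.

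*Pik3ip1* encodes a membrane protein that restrains PI3K. It was the lowest of the 9 genes, with 5.05 ± 0.35 RPKM in Dio3+/+ against 5.70 ± 0.29 RPKM in Dio3-/- hearts, for a log2 fold change of 0.16 (0.01 to 0.31, limma adjusted *P* = 0.225). The gap was just over the sum of the SDs, at 1.02 times. Its other row had 3.31 ± 0.53 and 4.04 ± 0.32 RPKM, a log2 fold change of 0.25, with overlapping SD ranges.

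Of the 20 genes of insulin and PI3K-AKT signaling, 20 were tested and 0 passed the adjusted threshold by limma, where 2.29% of all genes passed. Welch's test with adjustment gave 0 of them, against 27 of all 14657 genes. At an unadjusted *P* value under 0.05 by limma, 8 were higher and 2 lower, a level reached by 19.7% of all genes. The list median was 0.10. *Irs2* had the largest log2 fold change in the list. The receptors and kinases on its pathway were read after their values were seen. *Insr*, the insulin receptor, had 22.11 ± 2.65 and 26.82 ± 1.88 RPKM (log2 fold change 0.27, limma adjusted *P* = 0.126). *Irs1*, the other main adaptor, had 29.05 ± 2.90 and 25.03 ± 1.00 RPKM (−0.21, limma adjusted *P* = 0.145), so both adaptors had the lower mean in Dio3-/- hearts while the receptor had the higher one. *Igf1r* had 24.71 and 25.67 RPKM. Among the kinases, *Akt1* had 116.94 and 127.01 RPKM and *Akt2* had 36.12 and 40.19 RPKM, neither past the adjusted threshold.

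*Sesn3* encodes a sestrin, a stress-induced protein that restrains mTORC1. It had 22.42 ± 4.48 RPKM in Dio3+/+ against 20.93 ± 1.26 RPKM in Dio3-/- hearts, for a log2 fold change of −0.10 (−0.37 to 0.18, limma adjusted *P* = 0.728). The hearts of the control genotype spread more widely than the mutant ones, with coefficients of variation of 0.20 and 0.06, and the Dio3-/- range lay inside the Dio3+/+ range. The family members *Sesn1* (11.11 and 10.65 RPKM) and *Sesn2* (2.98 and 3.22 RPKM), named after their values were seen, had log2 fold changes of −0.06 and 0.10. *Sesn3* was the most abundant of the 3 sestrins by RPKM in both genotypes.

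All 15 sestrin and mTORC1 control genes were tested, and 0 passed the adjusted threshold by limma, where 2.29% of all genes passed. By Welch's test 0 passed, where 27 of all 14657 genes did. At an unadjusted *P* value under 0.05 by limma, 2 were higher and 1 lower, a level reached by 19.7% of all genes. The list median of 0.04 was that of all genes. The largest difference was that of *Trib3*, a stress-induced pseudokinase known to bind AKT. It had 6.36 ± 2.04 RPKM in Dio3+/+ against 2.70 ± 1.03 RPKM in Dio3-/- hearts, for a log2 fold change of −1.10 (limma adjusted *P* = 0.060).

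The other FoxO target genes had means that were higher for 9 and lower for 8 of those tested. Of 20 genes, 17 were tested, 0 rose and 1 fell, where 1.91% of all genes rose and 0.382% fell. At an unadjusted *P* value under 0.05 by limma, 3 were higher and 5 lower, a level reached by 19.7% of all genes. The list median was 0.03, and the gluconeogenic gene *Pck1*, *Igfbp1* and *Tnfsf10* were not above 1 RPKM in either genotype. The gene that fell was *Cited2*, a regulator of CBP/p300 that is required for heart septation. It had 32.04 RPKM in Dio3+/+ (coefficient of variation 0.08) against 25.78 RPKM in Dio3-/- hearts (0.02), for a log2 fold change of −0.31 (limma adjusted *P* = 0.034), and its other row passed with the same log2 fold change of −0.31. The adjusted *P* value was above 0.05 in 3 of the 9 alternatives, with Welch's test (0.190), without the mean-variance trend (0.0521) and with each coefficient of variation raised by its rounding error (0.0530). The largest log2 fold change was that of *Cat*, which encodes catalase, at −0.66 (84.83 ± 16.97 and 53.68 ± 9.66 RPKM, limma adjusted *P* = 0.063). Catalase is abundant in red cells, and the red cell markers given above also had lower means. A link between the 2 was not tested. Of 16 genes that modify FoxO proteins, 16 were tested and 0 passed the adjusted threshold by limma, where 2.29% of all genes passed. By Welch's test 0 passed, where 27 of all 14657 genes did. At an unadjusted *P* value under 0.05 by limma, 1 of the 16 was higher and 0 lower, a level reached by 19.7% of all genes. The largest difference among these was that of *Prkaa2*, a catalytic subunit of AMPK, with 30.51 and 36.39 RPKM and a log2 fold change of 0.25.

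Over the 9 genes and the lists together, 2 of the 110 genes tested (1.82%) passed the adjusted threshold, against 2.29% of all genes. An unadjusted *P* value under 0.05 was found for 34.5% of the 110 and for 19.7% of all genes. Genes in these lists are not independent of each other, and the lists were written with earlier results of these hearts known.

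**Figure D3:**
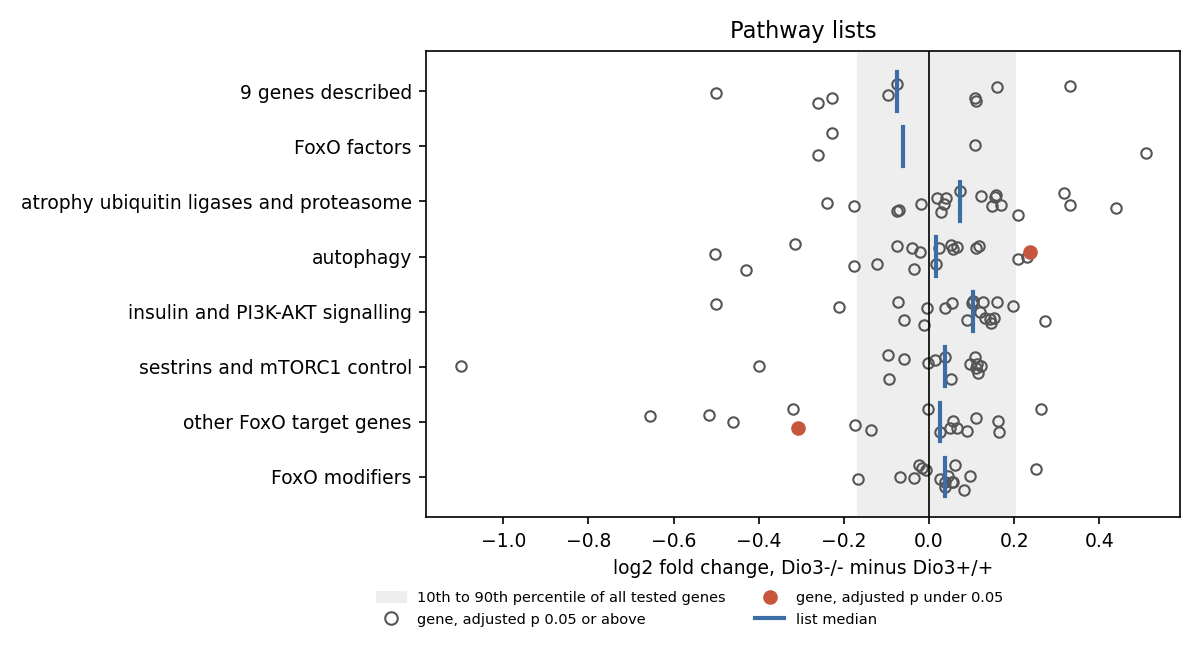
Log2 fold change of Dio3-/- against Dio3+/+ hearts for each tested gene (circles, filled where the adjusted P value by limma was under 0.05) in the 9 genes described and 7 pathway lists, with list medians as vertical bars and the 10th to 90th percentile of all tested genes (−0.17 to 0.20) shaded. Only Ctsl (0.24) and Cited2 (−0.31) are filled, and Trib3 (−1.10) lies farthest from 0.

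The order of the 9 genes by level was much alike in both genotypes. By RPKM, which is scaled to transcript length, *Trim63*, *Gabarapl1*, *Sesn3* and *Foxo3* led in that order in both, and *Pik3ip1* was lowest in both. In Dio3+/+ hearts *Irs2* followed *Foxo3* and stood above *Foxo4*, *Foxo1* and *Fbxo32*, whereas in Dio3-/- hearts it stood below them. In Dio3+/+ hearts the first 4 did not differ from their neighbors beyond the sum of the SDs, nor did *Irs2*, *Foxo4*, *Foxo1* and *Fbxo32*. The gaps between *Foxo3* and *Irs2* and between *Fbxo32* and *Pik3ip1* were larger than that. In Dio3-/- hearts the neighbors that did not differ beyond the sum of the SDs were *Foxo4*, *Fbxo32* and *Irs2*. All 9 genes were moderately expressed. In Dio3+/+ hearts, *Pik3ip1* was above 31.2% of all tested genes and *Trim63* above 80.1%.

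**Figure D4:**
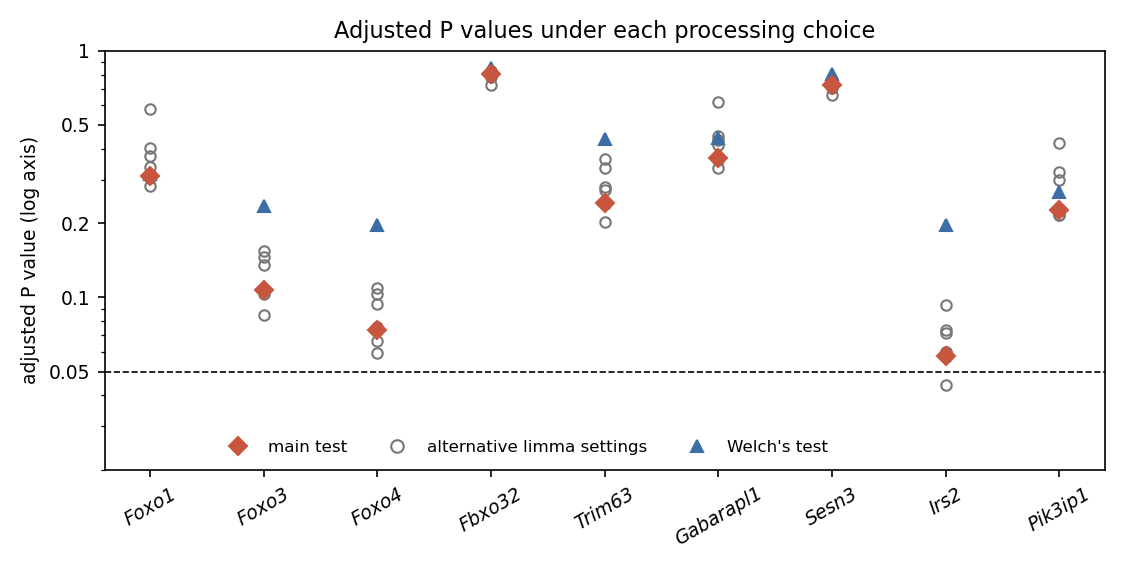
Adjusted P values (log axis) for the highest row of each of the 9 genes under the main limma test (diamonds), 8 alternative limma settings (open circles) and Welch's test calculated from the same summaries (triangles), with a dashed line at 0.05. Only Irs2 crosses the line, in 1 setting (0.044), and Fbxo32 and Sesn3 stay above 0.65 in every setting.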

How the data were processed

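The submitters' processing notes name FastQC and NovoAlign (version 2.08). Single-end reads were aligned to a genome whose build is not given in the sources used here, only uniquely mapping reads were kept, and the coverage of each sample was scaled down in proportion to the smallest library. The authors deposited genotype means per UCSC known-gene transcript, read here as RPKM, the unit of the filter in their Methods, since the table names none. The coefficient of variation deposited by the authors is the ratio of the SD to the mean over 4 hearts. Columns with the authors' own fold changes, *q* values and expression flags were not used. The Methods state read totals for the libraries as a whole, but the table holds no counts, so the depth and counting precision behind a single value are unknown here. SDs were calculated as the mean times the coefficient of variation.

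For each row, each coefficient of variation was turned into a variance of log2(RPKM + 0.5), pooled over genotypes with 6 residual degrees of freedom and moderated with limma (version 3.58.1, R 4.3.3, mean-variance trend, 3.52 prior degrees of freedom). Two-sided *P* values received Benjamini-Hochberg adjustment over 32703 rows. The test uses logs of means, not means of logs. It was tested on simulated data. The study's Methods name Welch's test, and a Welch's test on the same log2 summaries was run here as an alternative. It used rounded values on another scale, so it is not a rerun of the study's test. The study's own list of changed genes includes *Ctsl*, which this alternative did not call. That list names neither *Cited2* nor any of the 9 genes. A gene was counted by its highest row. The rule named the 9 genes, and from each list the genes past the threshold and the largest difference among the rest. Cell type markers were given as lists, and exceptions are marked. Values of some list members are not reported here. Macrophage markers (5 tested, 1 higher: *Lyz2*) and endothelial markers (6 tested, 0 past the threshold) were also read, where 2.29% of all genes passed by limma. The genes and lists were chosen with earlier results of these data known. Genes of similar pattern were not sought, as 2 genotype means hold no pattern over samples.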

Additional observations from a re-analysis of the deposited data

How the results depend on the processing

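Among the alternatives, only centering could turn the sign of a log2 fold change, and it turned none of the 9. With centering, the unadjusted *P* values by limma of *Trim63* (0.064) and *Pik3ip1* (0.094) no longer lay under 0.05. Those of *Foxo3*, *Foxo4* and *Irs2* stayed under it. The number of the 9 past the adjusted threshold was 0, and 1 with a mean over both genotypes above 5 RPKM (*Irs2*, −0.50). Over all 14657 genes the number past the threshold was 336. It was 180 with centering, 187 with each coefficient of variation raised by 0.005, 197 of 24817 genes with no filter on low values and 27 by Welch's test. The genes higher in Dio3-/- hearts numbered 280, and 129, 157, 168 and 27 in the same order. The genes lower numbered 56, and 30 with the raised coefficient of variation, 29 without a filter, 37 without the mean-variance trend and 0 with Welch's test. In the pathway lists the number was 2. It was 1 with centering, 1 without a filter, 4 with a mean above 5 RPKM (*Cat*, *Cited2*, *Ctsl* and *Irs2*), and 0 with the raised coefficient of variation, without the trend and with Welch's test. Fewer rows were tested above 5 RPKM, and more without a filter. The cause of the other shifts was not tested. No paired analysis was possible because the table gives genotype means and no values for single hearts. For the same reason leaving out each heart in turn was not run, and whether 1 heart decides a difference is unknown. The table holds no counts, so the counting error of rows near 1 RPKM is unknown.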
